A study of Nomascus leucogenys with 4 samples.

Results

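PU.1 peaks that lie outside the chromosome models of the gibbon assembly are described here. They are the peaks on unplaced sequences, chosen as every peak whose sequence name contains Un or random. There were 1329 such peaks among 19532 in both lists, 689 of 12399 in replicate 1 and 640 of 7133 in replicate 2, spread over 622 sequences. The lists come from lymphoblastoid cell lines, B lymphocytes immortalised with Epstein-Barr virus, of the gibbon Nomascus leucogenys. Cells of 2 individuals, named Ricky (replicate 1) and Vok (replicate 2), gave 1 anti-PU.1 ChIP library and 1 input library each. The labels give no treatment, age or genotype. After duplicate removal the ChIP libraries held 39743757 and 42905332 fragments and the inputs 31218578 and 40288483, per the file headers. With 1 ChIP library per individual no test between individuals was made, and peaks of a list are not replicates. Shares carry exact Clopper-Pearson 95% intervals, which cover counting error only, treat the peaks of a list as independent and show nothing of the spread between individuals.

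PU.1, the product of SPI1, is a DNA-binding factor of the ETS family that opens and marks enhancers in B lymphocytes and myeloid cells. Unplaced sequences are assembly pieces that could not be anchored. Some have been attributed to a chromosome without a position, and others to none. Such pieces are often rich in repeats or duplicated segments. The authors' peak caller gave each peak a pileup, the number of ChIP fragments over its summit, and a fold enrichment over a local background. The background behind each fold enrichment, in fragments, was computed from these values. Its lowest level, also the most common in each list, was 3.33 in replicate 1 and 3.87 in replicate 2 and is called the floor. A background over 2 times the floor is called high. Positions count from 1, as in the deposited lists.

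The members fell into 2 kinds, and those attributed to no chromosome were the majority in both individuals. The fully unassigned sequences (Un in the name) held 431 replicate 1 peaks on 258 sequences and 488 replicate 2 peaks on 262. The chromosome-assigned ones (random in the name) held 258 peaks on 171 sequences and 152 peaks on 115. Fully unassigned peaks made up 3.48% of the replicate 1 list (interval 3.16% to 3.81%) and 6.84% of the replicate 2 list (6.27% to 7.45%). Chromosome-assigned peaks made up 2.08% (1.84% to 2.35%) and 2.13% (1.81% to 2.49%).

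Peak numbers in the lists differed in ratio between the kinds. The ratio of replicate 1 to replicate 2 peaks was 0.883 on fully unassigned sequences (interval 0.774 to 1.01), 1.70 on chromosome-assigned ones (1.38 to 2.09) and 1.78 on autosomes (1.72 to 1.83). With −log10 q set to 10 or above they were 1.27 (0.926 to 1.74), 2.32 (1.61 to 3.38) and 1.75 (1.68 to 1.82), so the fully unassigned ratio lay above 1 there and its interval overlapped both others. Among peaks without high background the ratios were 1.14 (0.953 to 1.36), 1.83 (1.46 to 2.30) and 1.80 (1.75 to 1.86). Leaving out the 10 sequences with most peaks gave ratios of 0.869 and 1.69 for the fully unassigned and chromosome-assigned kinds. Replicate 1 had more peaks on 110 chromosome-assigned sequences, replicate 2 on 35, and 57 were level. On fully unassigned sequences the numbers were 171, 186 and 63.

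Most unplaced sequences carried very few peaks, with a small number of long runs. Of the 622 sequences, 390 (62.7%) had a single peak in both lists together, and 16 had at least 10. The 10 richest held 281 peaks, 21.1% of the members, and 95 sequences were needed to reach 50% of them. Within single lists the 10 richest held 145 of 689 peaks (21.0%) in replicate 1 and 150 of 640 (23.4%) in replicate 2.

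The richest sequence was chrUn_JH996244_1, with 23 peaks in replicate 1 and 32 in replicate 2 over 914 kb. Of these, 13 in each list were found in the other. Its summit pileups ran from 18 to 363 fragments (median 40) in replicate 1 and from 22 to 335 (median 43) in replicate 2. The median fold enrichment was 4.48 and 2.39. The pileup ranges of the lists overlapped there. The median background was 8.91 fragments in replicate 1 and 16.5 in replicate 2, which had the lower fold enrichment.

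Next came chrUn_GL397501_2 (22 and 23 peaks in replicates 1 and 2, 5 shared) and chrUn_GL397460_1 (22 and 15, 12 shared). They differed in background. The median at the summits was 7.64 and 8.03 fragments on chrUn_GL397501_2, and 3.33 and 4.26 on chrUn_GL397460_1, close to the floor. Median fold enrichments were 2.90 and 2.92 on the first and 6.02 and 4.31 on the second. chrUn_GL397566_1 followed with 18 and 15 peaks, 3 of them shared, and fold enrichments of at most 6.90 and 5.47.

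A further pair of the richest sequences had little background and wide spacing. On chrUn_GL397444_1 all 6 replicate 2 peaks were among the 16 of replicate 1, and on chrUn_GL397432_1 all 6 were among the 12. Their median summit-to-summit distance in replicate 1 was 112665 bp and 74549 bp. High background was present at 0 of the 22 peaks on the first and 1 of the 18 on the second. chr19_GL397538_1_random had 10 and 7 peaks, 6 shared, with median fold enrichments of 8.43 and 7.39, the highest in replicate 1 among the 10 sequences. chr14_GL397526_1_random had 10 and 4, with 1 shared.

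The remaining 2 of the 10 carried most of their peaks in replicate 2. chrUn_GL397626_1 had 3 peaks in replicate 1 and 18 in replicate 2, and none overlapped. chrUn_GL397824_1 had 4 and 15, with 2 shared, within 51.8 kb. High background was present at 12 of the 18 replicate 2 peaks on the first and 14 of the 15 on the second. The sequence chrUn_GL397587_1 carried 8 replicate 2 peaks and 0 in replicate 1, with a median pileup of 20 fragments and fold enrichment of 2.77. It was the one sequence with at least 5 peaks in a list and none in the other.

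**Figure D1:**
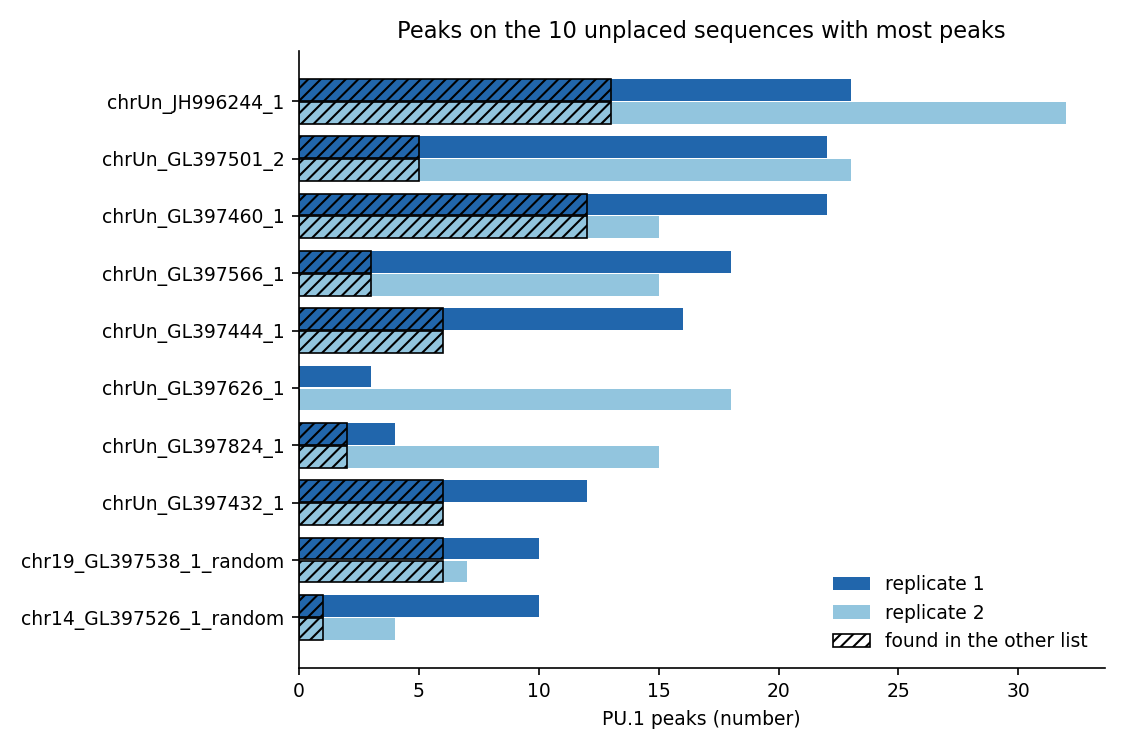
Horizontal bars give the number of PU.1 peaks (x axis) on each of the 10 unplaced sequences with most peaks (y axis), dark for replicate 1 and light for replicate 2, with hatching for peaks that overlap a peak of the other list. chrUn_GL397444_1 and chrUn_GL397432_1 are fully hatched in replicate 2, while chrUn_GL397626_1 has 3 and 18 peaks and no hatching.

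A minority of unplaced sequences was hit in both individuals, though it held 410 of the 689 replicate 1 members and 413 of the 640 replicate 2 members. Peaks of both lists were present on 184 of 622 sequences (29.6%), on 100 of 420 fully unassigned (23.8%) and 84 of 202 chromosome-assigned ones (41.6%). At least 1 overlapping pair lay on 145 of the 184, and 39 carried peaks of both individuals at different places. Another 245 sequences had peaks in replicate 1 alone (279 peaks, at most 4 on a sequence) and 193 in replicate 2 alone (227 peaks, at most 8). A single peak was all there was on 218 and 172 of these, which therefore could not be hit in both.

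Among chromosome-assigned sequences, chromosome 14 contributed the most, with 30 replicate 1 and 17 replicate 2 peaks, 7 of them shared. Chromosome X had 24 and 13 (5 shared), chromosome 19 had 22 and 13 (11 shared), and chromosome 24 had 18 and 10 (8 shared). Chromosomes 17 and 2 had 19 and 14 (6 shared) and 20 and 10 (4 shared). Of all chromosome 24 peaks, placed ones included, the assigned pieces held 10.6% in replicate 1, the highest share of any chromosome there, and 10.0% in replicate 2. In replicate 2 the highest share was that of chromosome X, 11.4%, against 6.45% in replicate 1. The assigned pieces of chromosome X did not gain peaks in replicate 2, with 24 and 13. Placed chromosome X peaks were fewer there by a larger factor. Their ratio of replicate 1 to replicate 2 was 3.45 (interval 2.75 to 4.34), against 1.78 on autosomes. On chromosome 14 the shares were 5.70% and 5.72%.

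Unplaced peaks lay near autosomal ones in pileup and apart from them in local background. Median pileups were 24 fragments on unplaced sequences and 28 on autosomes in replicate 1, and 28 and 30 in replicate 2. The lower and upper quartiles were 19 and 38 on unplaced sequences and 20 and 49 on autosomes in replicate 1. The median background was 5.09 on fully unassigned, 3.67 on chromosome-assigned and 3.33 on autosomal sequences in replicate 1. In replicate 2 these medians were 7.99, 4.70 and 3.87.

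High background marked 191 unplaced peaks in replicate 1 (27.7%, interval 24.4% to 31.2%) and 278 in replicate 2 (43.4%, 39.6% to 47.4%). Over all peaks of the lists the shares were 3.86% and 7.32%. On autosomes they were 2.47% (2.20% to 2.78%) and 3.75% (3.30% to 4.25%). Fully unassigned peaks had it in 37.1% (32.5% to 41.9%) and 51.2% (46.7% to 55.7%), and chromosome-assigned peaks in 12.0% (8.31% to 16.6%) and 18.4% (12.6% to 25.5%). In each list these 3 intervals did not overlap. Unplaced sequences carried 191 of the 479 high-background peaks in replicate 1 and 278 of the 522 in replicate 2.

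**Figure D2:**
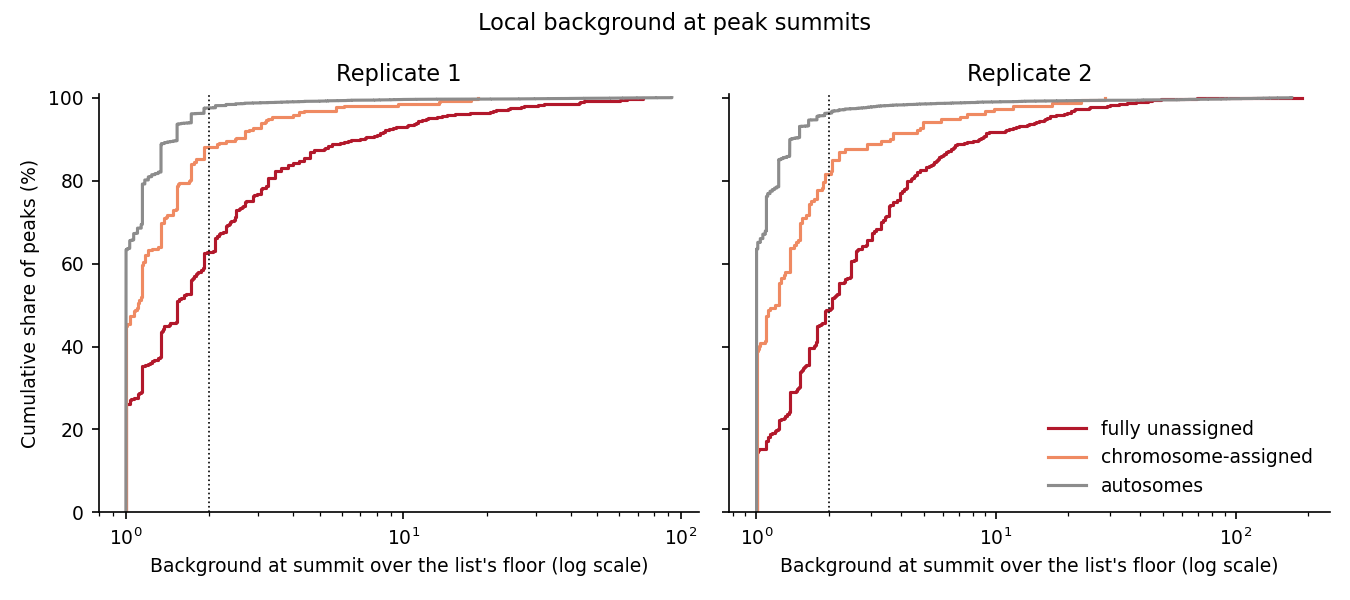
Cumulative share of peaks (y axis, %) by the background at the summit divided by the floor of the list (x axis, log scale), for fully unassigned, chromosome-assigned and autosomal peaks, with a dotted line at 2 times the floor. At the dotted line both unplaced kinds lie below the autosomes in both lists, the fully unassigned kind the lowest.

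Fold enrichment, in which that background is the divisor, was lower on unplaced sequences. The median fold enrichment was 3.46 on fully unassigned, 4.62 on chromosome-assigned and 6.00 on autosomal sequences in replicate 1, and 2.95, 4.10 and 5.81 in replicate 2. For each unplaced peak, autosomal peaks of the same list within 10% of its pileup (at least 1 fragment either way) were taken as its match. In replicate 1 unplaced peaks had a median fold enrichment of 3.88 against 5.54 at their autosomal matches, a ratio of 0.700. In replicate 2 unplaced peaks had 3.13 against 5.74 at their autosomal matches, a ratio of 0.544. When high-background peaks were left out on both sides, the ratios were 0.905 and 0.839.

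High background was frequent among members of high pileup. Of 40 unplaced peaks with at least 100 fragments in replicate 1, 21 had high background, against 67 of 1170 autosomal ones. In replicate 2 it was 43 of 49 unplaced and 64 of 638 autosomal peaks. The median fold enrichment of these peaks was 12.6 on unplaced sequences and 33.0 on autosomes in replicate 1, and 1.96 and 28.0 in replicate 2. A fold enrichment under 5 was found at 19 of the 40 unplaced and 44 of the 1170 autosomal peaks in replicate 1, and at 39 of the 49 unplaced and 58 of the 638 autosomal peaks in replicate 2. Autosomes thus held such peaks too, and in replicate 2 also among their highest pileups. In replicate 2, 16 of the 20 unplaced peaks with the highest pileup (156 to 1036 fragments) had a fold enrichment under 5, and so did 18 of the 20 highest autosomal peaks (728 to 1317 fragments). In replicate 1 the numbers were 12 of 20 unplaced and 0 of 20 autosomal peaks.

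Unplaced sequences held a larger share of the weakly enriched peaks than of the strong ones. Under a fold enrichment of 3 they held 183 of 490 peaks in replicate 1 (37.3%, interval 33.0% to 41.8%) and 288 of 577 in replicate 2 (49.9%, 45.8% to 54.1%). High background was present at 74.3% and 80.6% of these unplaced peaks, and at 48.8% and 63.5% of the autosomal peaks under 3. Background is the divisor of fold enrichment, so these shares are not independent of the background shares. At a fold enrichment of 10 or more they held 62 of 3102 (2.00%, 1.54% to 2.56%) and 26 of 1569 (1.66%, 1.09% to 2.42%).

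**Figure D3:**
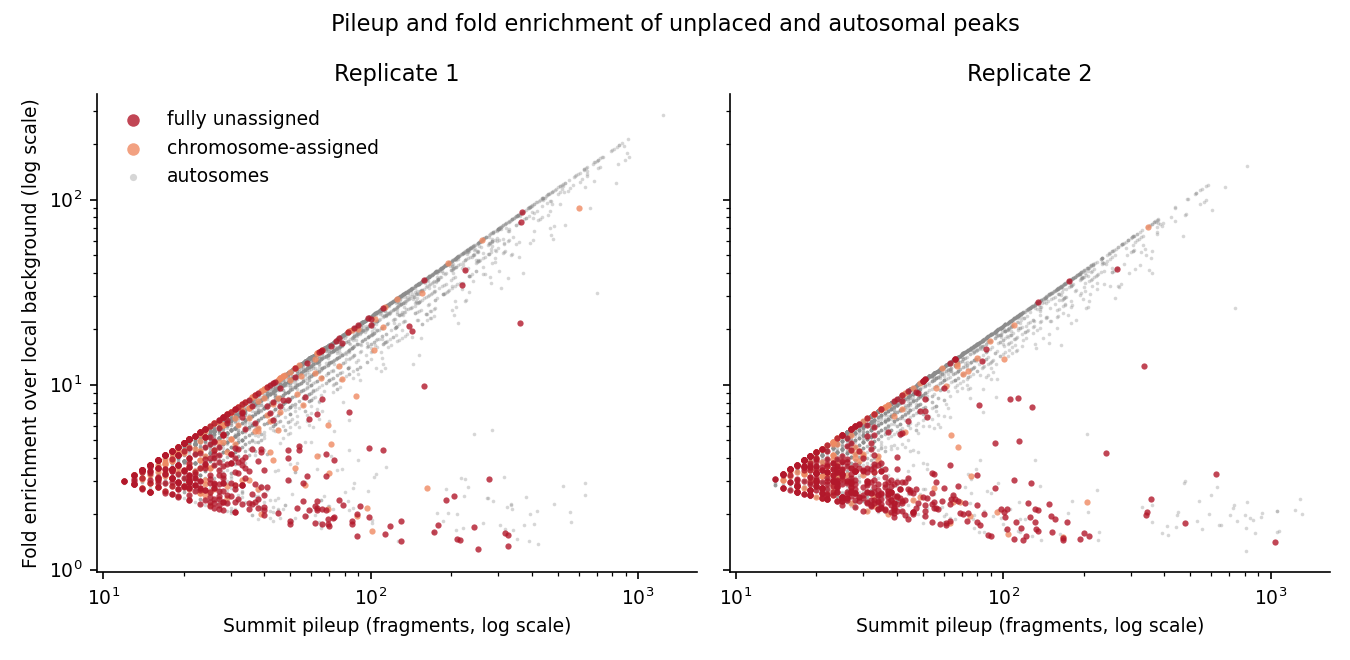
Fold enrichment (y axis, log scale) against summit pileup in fragments (x axis, log scale) for fully unassigned, chromosome-assigned and autosomal peaks of replicate 1 and replicate 2. The upper edge is the line of peaks at the background floor, and many fully unassigned peaks of high pileup lie far below it, with fold enrichments near 2.

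Recovery of unplaced peaks in the other individual was low, and in replicate 2 far lower than on autosomes. A peak counted as recovered if it overlapped a peak of the other list by at least 1 bp. Of the 689 replicate 1 members 213 were recovered (30.9%, interval 27.5% to 34.5%), and of the 640 replicate 2 members 213 (33.3%, 29.6% to 37.1%). Over all peaks the recoveries were 45.1% and 78.6%. On autosomes they were 46.6% (45.7% to 47.5%) and 83.0% (82.0% to 83.9%). With both lists limited to −log10 q of 10 or above, 44.7% of replicate 1 members and 73.9% of replicate 2 members were recovered. Set against autosomal peaks of matched pileup at this limit, these recoveries differed by -9.07 and -21.2 percentage points. The kinds were close in replicate 1, with 29.5% of fully unassigned and 33.3% of chromosome-assigned peaks recovered. They differed in replicate 2, with 26.0% (22.2% to 30.2%) and 56.6% (48.3% to 64.6%).

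Matching on pileup left a gap in both lists, of very unequal size. Before matching, both lists held much the same number of recovered peaks, 213 and 213 unplaced and 5294 and 5303 autosomal. Recoveries in the lists therefore differ by their peak numbers, which were 689 and 640 unplaced but 11362 and 6392 autosomal. In replicate 1 the recovery of 30.9% stood against 39.2% at matched autosomal peaks, a difference of -8.31 percentage points. In replicate 2, 33.3% stood against 80.8%, a difference of -47.5 points. Among peaks without high background the difference was -0.202 points in replicate 1 (30.5% against 30.7%) and -30.9 points in replicate 2 (41.2% against 72.0%). Matched on fold enrichment in place of pileup, unplaced peaks had 30.9% against 29.9% in replicate 1 and 33.3% against 49.9% in replicate 2. Matched on pileup and background together, 662 and 617 members found a partner, and the differences were -2.44 and -17.7 points. Among high-background peaks alone, matched on pileup, the difference was -14.9 points in replicate 1 (31.9% against 46.8%). In replicate 2 it was -17.7 points (23.0% against 40.7%). The replicate 1 difference was thus near 0, of either sign, under the other rules but not among high-background peaks. That in replicate 2 was smaller than on pileup alone and negative under each. The part that background has in the recovery was not tested beyond these values.

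The kinds again separated in replicate 2. The pileup-matched difference there was -55.7 points for fully unassigned and -21.1 points for chromosome-assigned peaks. Matched on fold enrichment it was -19.7 and -6.96 points. In replicate 1 it was -10.5 and -4.59 points on pileup, and 1.15 and 0.672 points on fold enrichment. Each list held 127 recovered fully unassigned and 86 recovered chromosome-assigned peaks. Their totals were 431 and 258 in replicate 1, and 488 and 152 in replicate 2.

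In replicate 2 the recovered share of fully unassigned peaks lay below that of autosomal ones in each pileup group, with intervals that did not overlap. In replicate 2, 19 of 43 fully unassigned peaks with 100 or more fragments were recovered (44.2%, interval 29.1% to 60.1%), against 627 of 638 autosomal peaks (98.3%, 96.9% to 99.1%). At 20 to 29 fragments it was 16.9% (11.6% to 23.3%) against 81.5% (79.8% to 83.1%). Chromosome-assigned peaks of that group had 57.8% (44.8% to 70.1%). For strongly enriched members the interval held the autosomal value. At a fold enrichment of 10 or more, 57 of 62 replicate 1 members were recovered (91.9%, 82.2% to 97.3%), against 94.1% on autosomes. In replicate 2 it was 26 of 26 (100%, 86.8% to 100%), against 99.3% on autosomes.

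**Figure D4:**
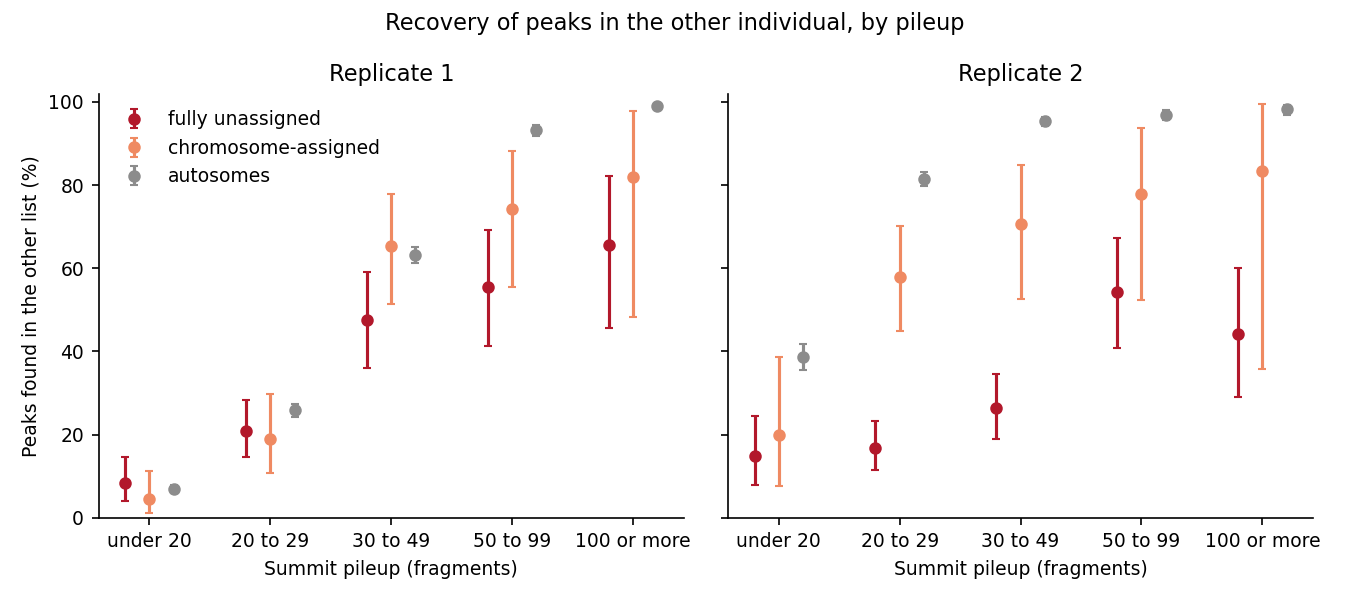
Share of peaks found in the other list (y axis, %) by summit pileup in fragments (x axis), for fully unassigned, chromosome-assigned and autosomal peaks, with exact 95% intervals. Autosomal points reach 98.3% in replicate 2 at 100 or more fragments, where the fully unassigned point is at 44.2%.

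Unshared members mostly lay on sequences without any peak in the other individual. This held for 279 of 476 unshared members in replicate 1 (58.6%) and 227 of 427 in replicate 2 (53.2%). For the rest, the nearest peak of the other list lay a median of 9506 bp and 6507 bp away, and within 2 kb for 40 and 51 peaks. High background was present at 130 of the 476 (27.3%) and 214 of the 427 unshared members (50.1%), against 61 of 213 and 64 of 213 recovered members. On autosomes it was present at 115 of 6068 unshared and 166 of 5294 recovered peaks in replicate 1. In replicate 2 these were 123 of 1089 and 117 of 5303. Over all peaks the numbers were 251 of 6803 and 228 of 5596 in replicate 1. In replicate 2 they were 340 of 1528 and 182 of 5605. More frequent high background at unshared peaks in replicate 2 was thus not particular to unplaced sequences.

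The 213 recovered pairs are described by their pileup in the 2 lists, which were not normalised to each other. At the 143 unplaced pairs without high background in either list, the pileup was higher in replicate 1 at 111 (77.6%, interval 69.9% to 84.2%). The median pileup ratio, replicate 1 over replicate 2, was 1.32 there. Of the corresponding autosomal pairs 84.6% (83.6% to 85.6%) were higher in replicate 1, with a median ratio of 1.42. At the 70 unplaced pairs with high background in either list, 22 were higher in replicate 1 (31.4%, 20.9% to 43.6%) and the median ratio was 0.856. By kind these were 15 of 57 fully unassigned pairs (median ratio 0.844) and 7 of 13 chromosome-assigned pairs (1.01). On autosomes 123 of 196 such pairs were higher in replicate 1 (62.8%, 55.6% to 69.5%), at a median ratio of 1.22. Fold enrichment stayed higher in replicate 1 at 45 of the 70 unplaced pairs. Summits lay a median of 13 bp apart in unplaced pairs and 7 bp in autosomal ones, and 79.8% and 93.6% of pairs were within 50 bp.

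**Figure D5:**
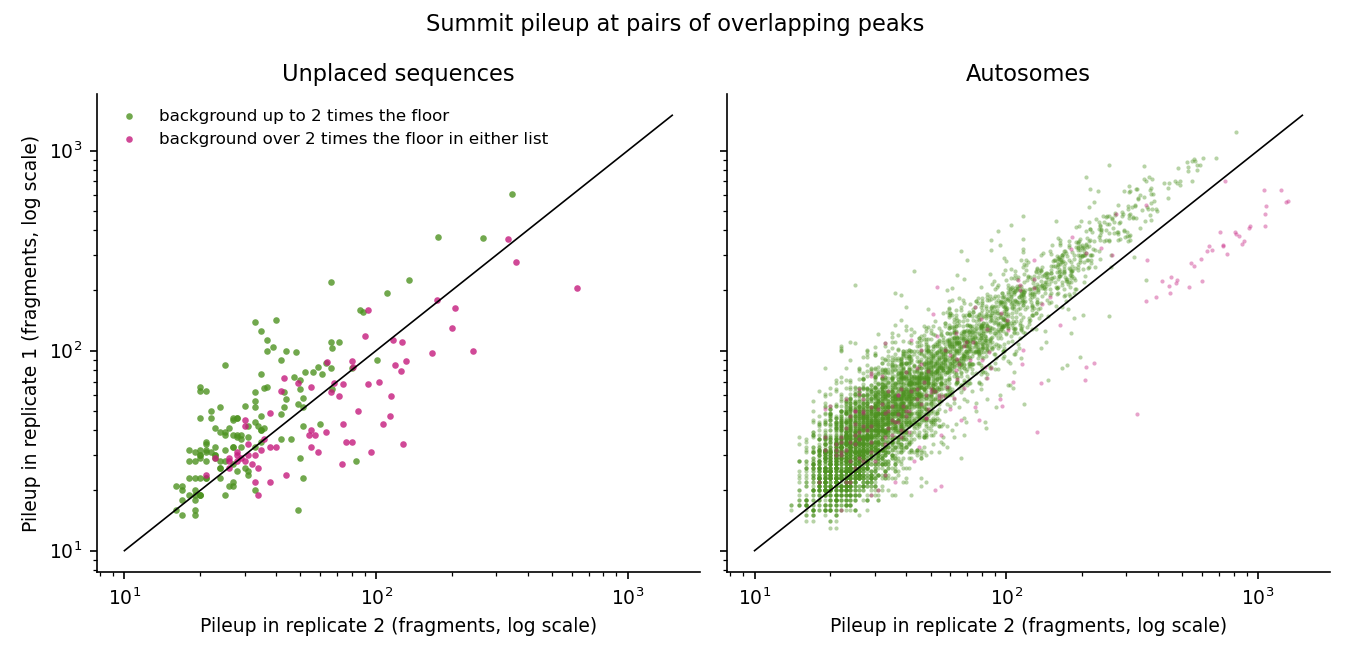
Summit pileup in replicate 1 (y axis, fragments, log scale) against replicate 2 (x axis, log scale) at pairs of overlapping peaks on unplaced sequences (left) and autosomes (right), coloured by whether the background exceeded 2 times the floor in either list; the line marks equal pileup. Unplaced pairs with high background have a median ratio of 0.856, with 15 of 57 fully unassigned and 7 of 13 chromosome-assigned ones above the line, and those without it a median ratio of 1.32.

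The 10 recovered members of highest geometric mean pileup included strongly and weakly enriched sites. Positions are those of replicate 1. The first lay on chr8_GL399887_1_random at 3668 to 4494, with 603 fragments and a fold enrichment of 89.8 in replicate 1, and 347 fragments and 71.4 in replicate 2. Its summit was at the same base, 4081, in both. A pair of sites on chrUn_GL397444_1 was of the same kind. The site at 701943 to 702742 had 369 and 176 fragments in replicates 1 and 2 (fold enrichments 85.4 and 36.3), and the site at 2188004 to 2188539 had 365 and 266 (75.9 and 42.2). The site on chrUn_GL397501_2 at 735870 to 736585 had 225 and 135 fragments (41.4 and 27.9). These 4 had backgrounds below 2 times the floor in both lists and were all higher in replicate 1.

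The other 6 of the 10 stood on high background. On chrUn_JH996244_1 the site at 973913 to 974632 had 363 and 335 fragments and fold enrichments of 21.5 and 12.7, over backgrounds of 15.9 and 25.6 fragments. On chrUn_GL401457_2 a site at 6324 to 6581 had 205 and 625 fragments but fold enrichments of 2.52 and 3.29. A second one at 3582 to 3904 had 276 and 358 fragments and fold enrichments of 3.10 and 2.40. Their backgrounds were 80.8 and 189 fragments, and 88.5 and 149. The sites on chr14_GL397534_2_random, chrUn_GL399148_1 and chrUn_GL398288_1 had fold enrichments between 1.58 and 2.76 in both lists. Summits of all 10 pairs lay within 66 bp, and 8 of them within 5 bp.

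The unshared members of highest pileup were all weakly enriched. In replicate 1 they lay on chrUn_GL402776_1 at 1182 to 1469 (327 fragments, fold enrichment 1.34) and at 384 to 897 (317 and 1.57), and on chrUn_GL401761_1 at 4342 to 5029 (327 and 1.53). Neither sequence had a peak in replicate 2. In replicate 2 a site on chrUn_GL399154_1 at 2581 to 3205 had the highest pileup of any member, 1036 fragments, over a background of 736, for a fold enrichment of 1.41. The next were on chrUn_GL398659_2 at 12681 to 12896 (478 fragments, 1.79) and again on chrUn_GL399154_1 at 3932 to 4300 (345 fragments, 2.06). Ranked by fold enrichment, 5 unshared members of replicate 1 and 0 of replicate 2 reached 10, a listing made after the values were seen. The highest, on chr14_GL397526_1_random at 894927 to 896079, had 260 fragments and a fold enrichment of 60.3. Another on that sequence, at 774552 to 774969, had a fold enrichment of 11.2. The other 3 lay on chrUn_GL397460_1 (15.2), chrX_GL397665_2_random (11.8) and chr2_ADFV01135931_1_random (11.1).

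Unplaced peaks were slightly wider than autosomal peaks of like pileup, though narrower than autosomal peaks as a whole. The median width was 274 bp against 306 bp on autosomes in replicate 1, and 277 bp against 303 bp in replicate 2. With matched pileup it was 274 bp against 257 bp and 277 bp against 267 bp, ratios of 1.07 and 1.04. Without high-background peaks the ratios were 1.14 and 1.18, and with −log10 q set to 10 or above they were 1.02 and 0.951. The widest members, of 2667 bp in replicate 1 and 3085 bp in replicate 2, exceeded every autosomal peak (2353 bp and 2202 bp).

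Members on a common sequence lay close together. The median distance between successive summits was 22.8 kb on unplaced sequences and 93.1 kb on autosomes in replicate 1, and 9.28 kb and 161 kb in replicate 2. In replicate 2, 57 of 263 distances on unplaced sequences (21.7%) were under 2 kb, against 180 of 6367 on autosomes (2.83%). In replicate 1 these shares were 10.4% and 3.71%. Without high-background peaks the medians were 38.7 kb and 34.6 kb on unplaced sequences, and 97.2 kb and 172 kb on autosomes. A short sequence allows no long distance, and sequence lengths were not used here, so short spacing and short sequences cannot be told apart. On the 10 richest sequences the density between the outermost peaks had a median of 11.6 peaks per Mb in replicate 1 and 13.6 in replicate 2. The autosomal medians were 4.44 and 2.49. Densities on these 10 ran from 4.50 to 116 and from 2.09 to 272 peaks per Mb, and on autosomes from 3.17 to 5.74 and from 1.65 to 3.56. The highest values, 116 and 272, were those of chrUn_GL397824_1, over spans of only 0.0259 and 0.0515 Mb. The 10 were chosen for their peak numbers, so these densities are a description.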

How the data were processed

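The authors deposited 1 peak list per individual. Per the file headers, trimmed bwa alignments filtered at a mapping quality of 30 were the input to peak calling, which used MACS 2.1.1.20160309 on fragment pairs, ChIP against the same individual's input, at q 0.05 and with at most 1 fragment kept per position. Filtering on mapping quality removes fragments with several equal placements and can thin repeated sequence. The submitters' processing notes name Bowtie2 instead. No source used here gives the build. The lists as deposited give the summit pileup (coverage in fragments, whole numbers in 100% of peaks), a fold enrichment ratio, and −log10 p and q values, all the authors' values.

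Background at a summit was computed as (pileup + 1)/fold enrichment − 1, and its floor is the most common value in a list. Each matched member counted once, with the mean recovery, or the median fold enrichment or width, of its autosomal matches. The matching was tested on simulated data. No test between kinds of sequence was run, and intervals cover counting error only. Replicates are numbered in accession order. The members, lists and comparisons were chosen with earlier results of these data known. Named are the 10 sequences with most peaks, the 10 recovered pairs of highest geometric mean pileup, the 3 unshared members of highest pileup per list, and sequences with at least 5 peaks in one list and 0 in the other. Alternatives were other overlap rules, q minimums, match widths, background limits and left-out sequences or replicates. Sequence content was not analysed here, and the repeat family table was not used. Scripts ran on matplotlib 3.10.9, SciPy 1.17.1, pandas 2.3.3 and numpy 2.4.6 under Python 3.11.15.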

Additional observations from a re-analysis of the deposited data

How the results depend on the processing

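Values here are means of the 2 lists, except the shares held by the richest sequences, which are taken over the peaks of both lists together. With a −log10 q of at least 5 and of at least 10, unplaced sequences held 4.24% and 2.98% of peaks (7.26% over all peaks), 48.7% and 59.3% of members were recovered (32.1%), spacing was 38.9 kb and 61.8 kb (16.0 kb), and the 10 richest sequences held 23.2% and 31.6% of members (21.1%). The width ratio was 1.00 and, with the direction reversed, 0.985 (1.05). At 10 the chromosome-assigned share of members was 44.4% (30.6%), the fold enrichment ratio 0.740 (0.622) and the high-background share 22.1% (35.6%). Without high-background peaks the fold enrichment ratio was 0.872 and the width ratio 1.16. In alternatives added after the data were seen, the same omission gave an unplaced share of 4.83%, recovery of 35.8% and spacing of 36.7 kb, and the recovery difference was -7.84 points matched on fold enrichment and -10.1 points on pileup and background (-27.9 on pileup). Recovery was 26.5% with a reciprocal overlap of 50% and 28.8% with summits within 100 bp. Matching within 25% gave a width ratio of 1.08, and a background limit of 3 times the floor a share of 23.0%. The 5 richest sequences held 14.4%, and the 10 richest 18.8% without the richest. The cause of these shifts was not tested.

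Leaving out either replicate leaves the other list's value. This ranges from 5.56% to 8.97% for the unplaced share, 23.8% to 37.4% for the chromosome-assigned share, 30.9% to 33.3% for recovery, and -47.5 to -8.31 points for the pileup-matched difference. It ranges from 0.544 to 0.700 for the fold enrichment ratio, 1.04 to 1.07 for width, 27.7% to 43.4% for high background, 9.28 kb to 22.8 kb for spacing and 21.0% to 23.4% for the 10 richest sequences. The pileup-matched difference moved by less than the standard deviation of the 2 list values under every alternative tried. That standard deviation, 27.7 points, is about as large as the mean difference itself. No paired analysis was possible because the values analysed come from the ChIP lists, 1 per individual. The inputs enter these lists through the peak calling, and so through the peaks listed, their fold enrichment and their q values. Sequence features were not run.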
